A study of Mus musculus with 30 samples.

Results

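Nascent RNA of very long genes was followed in mouse E14 embryonic stem cells in which SPT16 can be depleted; SPT16 is 1 of the 2 proteins of FACT, a histone chaperone. Members were selected on length and on summed washout counts: genes on a single chromosome with a length of at least 400 kb in the count table and at least 200 read pairs summed over the 8 libraries of a washout experiment, with a set of names left out (Gphn, Camk1d, Hs3st4, Hs6st2, and symbols starting with Robo, Slit, Dcc, Unc5, Plxn, Sema, Eph, Efn, Sox, Prdm or Gm). The rule kept 233 of 55291 genes. The series holds 30 libraries of TT-seq, in which cells take up 4-thiouridine, here for 5 min, so that sequenced RNA is newly made. In the washout experiment, cells of 2 independently targeted lines with a C-terminal V5 and AID degron tag on SPT16, named 10E and 11D, received 500 nM of the auxin 3-IAA or ethanol (EtOH) for 12 h and then fresh medium for 24 h, with 2 libraries per line and treatment. The other 22 libraries form a time course with 2 libraries in each of 11 groups. Tagged cells were sampled at 0 h and at 3, 6 and 12 h of EtOH or of IAA, and untagged cells at 0 h and at the same times of IAA only. The labels of the untagged cells name an integrated osTIR1, the plant receptor through which auxin marks an AID-tagged protein for degradation. All cells grew without feeders in serum with LIF and inhibitors of GSK3 and MEK. Time-course groups rest on the titles, because other label fields contradict them for many libraries, and the labels do not tie 10E and 11D to the titles' Clone1 and Clone2.

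FACT takes histones from nucleosomes ahead of RNA polymerase II and puts them back behind it. A polymerase needs hours to cross a gene of this size, and nearly all RNA made on the way is intronic. Very long mammalian genes are often neuronal, among them synaptic adhesion proteins, ion channels and scaffolds that stem cells transcribe little, while a smaller set serves all cells, and several of these lie at common fragile sites.

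The members ranged from 400.2 to 4435 kb in length, with a median of 577 kb, and 42 were of 1000 kb or more. Of the 231 that matched the GENCODE annotation, 228 were protein coding. Exons covered a median of 1.61% of a member, against 17.1% over all 15110 genes tested, and the counts include introns. Just inside the length limit were Bnc2, Dst and Fam189a1 with 400181, 400437 and 400480 bases, and just outside were Plxdc2, Adk and Itpr2 with 399536, 395996 and 393925 bases. Just inside the count limit were Fgf13, Fam155a and Iqcm with 200, 201 and 205 pairs, and just outside were Dnm3, Fat3 and Car10 with 197, 196 and 196 pairs. The counts that chose the members include those of the IAA libraries: 189 members reach 200 pairs in the EtOH libraries alone. Counts of members that differ are therefore given as a description.

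RefSeq promoter windows on GRCm38.p6 (mm10), from 250 bases before to 50 after a transcript start, were found for 173 members, and for 132 the start lay within 1000 bases of the member's own 5′ end. Over those 132 the median window held 24 CpG dinucleotides (CG read on the printed strand, which is the same on the other), against 7 over all 32851 windows of the table. When members were split by transcription per length into 4 level groups of 58 or 59, the median went from 16 in the lowest group to 28 in the highest. The 19 members with a window that were higher in IAA after washout had a median of 15, the 3 that were lower also 15, and the 110 not called 24.5. Windows are shown for the largest rise (Slc9a9), a glutamate receptor gene that rose (Grm8), the largest fall (Dach2) and a member with very high transcription per length (Agap1), with CpG in capitals.
Slc9a9, chr9:94669642-94669941, plus strand: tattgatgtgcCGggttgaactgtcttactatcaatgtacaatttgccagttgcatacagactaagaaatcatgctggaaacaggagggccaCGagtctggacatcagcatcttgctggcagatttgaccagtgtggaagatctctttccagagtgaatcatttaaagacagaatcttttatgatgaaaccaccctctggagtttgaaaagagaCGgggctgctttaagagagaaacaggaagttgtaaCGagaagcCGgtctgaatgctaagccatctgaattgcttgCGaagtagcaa
Grm8, chr6:28135097-28135396, minus strand: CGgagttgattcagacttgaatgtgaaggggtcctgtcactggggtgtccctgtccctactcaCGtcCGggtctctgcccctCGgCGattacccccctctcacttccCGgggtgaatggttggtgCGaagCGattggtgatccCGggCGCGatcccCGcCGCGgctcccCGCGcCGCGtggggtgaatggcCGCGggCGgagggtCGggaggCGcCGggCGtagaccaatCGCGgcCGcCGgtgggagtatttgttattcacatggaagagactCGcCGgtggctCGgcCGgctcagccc
Dach2, chrX:113297260-113297559, plus strand: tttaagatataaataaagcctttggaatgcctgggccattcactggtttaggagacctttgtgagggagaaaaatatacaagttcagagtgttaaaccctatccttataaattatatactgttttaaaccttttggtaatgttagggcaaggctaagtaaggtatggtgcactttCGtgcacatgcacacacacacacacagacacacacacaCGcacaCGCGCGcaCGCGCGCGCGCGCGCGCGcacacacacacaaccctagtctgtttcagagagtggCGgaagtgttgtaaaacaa
Agap1, chr1:89454561-89454860, plus strand: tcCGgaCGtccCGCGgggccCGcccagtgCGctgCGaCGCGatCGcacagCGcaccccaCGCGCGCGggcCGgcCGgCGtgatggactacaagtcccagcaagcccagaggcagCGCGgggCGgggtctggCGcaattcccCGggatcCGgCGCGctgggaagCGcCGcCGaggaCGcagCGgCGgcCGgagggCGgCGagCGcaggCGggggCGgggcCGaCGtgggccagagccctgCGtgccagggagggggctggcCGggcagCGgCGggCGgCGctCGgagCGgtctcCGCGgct
The Slc9a9 window holds 6 CpG at 43.7% G and C, the Grm8 window 33 at 67.0% and the Agap1 window 50 at 80.0%. The 15 CpG of the Dach2 window lie mostly in a run of alternating C and G next to a CA repeat.

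Transcription per length spanned 3 orders of magnitude. The level is given as CPM (read pairs per 1e6 in the TMM-scaled library) per megabase of gene, averaged over the 8 washout libraries. It ran from 1.04 to 2483, with a median of 22.5. The 5 highest were Snd1 at 2483, a nuclease and transcriptional co-activator, Dst at 2057, a cytoskeletal linker, Agap1 at 1896, an Arf GTPase-activating protein, Slc39a11 at 1443, a zinc transporter, and Dock1 at 1135, a Rac activator. None of these 5 was called after washout by edgeR; the authors' deposited table has Slc39a11 negative, at -0.48 (adjusted p = 0.0453). The list of cytoskeletal and membrane linkage genes had a median level of 124, that of neuronal and synaptic adhesion genes 6.07, and that of ion channels and neurotransmitter receptors 10.5.

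The libraries held 6547992 to 16554314 assigned pairs. Members took 2.32 to 3.57% of them in EtOH and 1.25 to 2.06% in IAA. Outside the 6 rows named next, the shares overlapped, at 2.61 to 3.84% in EtOH and 2.10 to 3.47% in IAA. The 6 rows that each exceed 1% of a library (Cdk8, Lars2, Gphn, Gm23935, Cmss1 and CT010467.1) took 7.12 to 11.4% in EtOH and 29.9 to 40.7% in IAA. A fit without them gave 33 members higher and 8 lower in place of 32 and 8. Beyond that fit, their part in the results was not tested. The TMM factors of the full fit were 1.17 to 1.31 in EtOH and 0.697 to 0.947 in IAA. Of 8 stem cell markers 7 could be tested and none was called. Their summed level was 2430 to 4076 CPM in EtOH and 2717 to 3131 CPM in IAA, with Sox2 at 0 assigned pairs throughout. Pairs that overlap several genes were not assigned, so a 0 need not mean that a gene is silent. Whether this holds for Sox2 was not tested. Of 5 primitive endoderm markers 4 could be tested and 2 rose, Pdgfra and Dab2, and the sum was 8.90 to 12.0 CPM in EtOH and 14.7 to 16.4 CPM in IAA. Of 6 neural markers only Nes could be tested, and it was not called (summed level 6.80 to 29.2 CPM in EtOH, 14.5 to 18.2 CPM in IAA, nearly all of it Nes). Sox1, Tubb3 and Neurod1 were at 0, with the same limit as for Sox2. Of 4 trophoblast markers 3 could be tested and none was called (11.3 to 17.2 CPM in EtOH, and at most 18.05 CPM in IAA), and the 5 fibroblast markers were too low to test (0.384 to 1.24 and 0.527 to 2.35 CPM). In bulk RNA, fewer cells of a type and less RNA per cell cannot be told apart.

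After washout, 32 members were higher and 8 lower in IAA than in EtOH, and 193 were not called (edgeR quasi-likelihood test, Benjamini-Hochberg adjusted p under 0.05 over all genes, n = 4 against 4). Over all 15110 genes tested, 8.83% were called higher and 7.6% lower, against 13.7% and 3.43% of the members. The median log2 fold change was 0.05 over the members and -0.05 over all genes. An unadjusted p under 0.05 was found for 72 members, and the number over all genes is not given here. EtOH and IAA libraries did not overlap in 27 of the 32 and 6 of the 8, 84.4% and 75.0%, against 91.4% and 90.3% of all genes called higher and lower. Of the 32, 12 reach 200 pairs in the EtOH libraries alone and 20 do not. The authors' deposited table, in the form of DESeq2 output, has 37 members positive and 16 negative, where 8.96% and 7.05% of all genes were, and these include all 32 and all 8. The number higher was 20 without replicate 2 of 10E EtOH, 16 without replicate 1 of 10E IAA and 17 without replicate 2 of 10E IAA. The number lower was 2 without replicate 1 of 10E IAA and 4 without replicate 2 of 10E EtOH, replicate 2 of 11D EtOH, replicate 1 of 11D IAA or replicate 2 of 11D IAA.

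Slc9a9, a sodium and proton exchanger of endosomes, showed the largest rise. It measured 1.62 and 1.48 CPM in 10E EtOH, 0.988 and 2.55 in 11D EtOH, 24.3 and 28.9 in 10E IAA, and 21.4 and 13.1 in 11D IAA. Every IAA library lay above every EtOH library, in both lines (log2 3.70 ± 0.33 SE, adjusted p = 3.79e-05). Leaving out any 1 library kept the log2 change between 3.52 and 4.00.

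Genes of neurotransmitter signalling and neuronal adhesion were among the largest rises. Grm8, a metabotropic glutamate receptor, measured 1.01 and 1.16 CPM in 10E EtOH, 0.274 and 0.708 in 11D EtOH, 10.0 and 9.62 in 10E IAA, and 3.83 and 1.45 in 11D IAA (log2 2.95 ± 0.60 SE, adjusted p = 0.00782). The groups did not overlap, and the lowest IAA library was in 11D. Il1rapl1, a synapse-organizing membrane protein, measured 1.16 and 2.27 CPM in 10E EtOH, 1.10 and 1.98 in 11D EtOH, 7.85 and 5.14 in 10E IAA, and 5.65 and 9.12 in 11D IAA (log2 2.07 ± 0.34 SE, adjusted p = 0.00235). It was one of the rises that was as large in 11D as in 10E. Ntm, an immunoglobulin adhesion protein of neurons, rose by 2.40, Chrm3, a muscarinic acetylcholine receptor, by 2.07, and Gabrg3, a subunit of the GABA-A receptor, by 2.06 on the log2 scale. The Gabrg3 call was lost without either 10E IAA library (adjusted p 0.0587 and 0.0514). Of 20 ion channels and receptors 4 rose and 1 fell, with a median of 0.27, and of 17 neuronal adhesion genes 4 rose and 1 fell, with a median of 0.12.

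Enox1, a cell-surface oxidase, was the one strong rise at a high level. It measured 44.0 and 14.4 CPM in 10E EtOH, 45.7 and 23.2 in 11D EtOH, 268 and 423 in 10E IAA, and 60.1 and 67.1 in 11D IAA (log2 2.69 ± 0.66 SE, adjusted p = 0.0229). The 10E IAA libraries stood far above the rest, and the call was lost without any of 4 single libraries (adjusted p up to 0.0894). Anks1b, a scaffold protein of the postsynapse, measured 1.85 to 3.17 CPM in EtOH, 22.4 and 27.4 in 10E IAA, and 9.68 and 6.67 in 11D IAA (log2 2.58 ± 0.42 SE, adjusted p = 0.00249). Hpse2, a heparanase family member, rose by 2.23, Rgs6, a regulator of G protein signalling, by 2.19, Ptprt, a receptor tyrosine phosphatase, by 2.17, and Nell1, a secreted protein, by 1.91 on the log2 scale. The Nell1 call was lost without either 10E IAA library (adjusted p 0.0553 and 0.0528).

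A further list held kinases, phosphodiesterases and lipid signalling genes, and also Fgf13. Its median log2 change was 0.73, with no called fall among its 19 genes and 7 of the 32 rises. The largest were Pde10a, a phosphodiesterase, at 1.77, Inpp4b, a phosphoinositide phosphatase, at 1.57, and Fgf13, an intracellular growth factor homologue, at 1.29. Next in size was Dgkb, which was not called and is at -1.25 in the authors' deposited table. Of 24 transcription and chromatin factors 4 rose and 2 fell, with a median of 0.17. The list of 38 housekeeping enzymes and common fragile site genes also holds Hpse2, its 1 rise, and Gpc6, 1 of its 2 falls. Its median was -0.12. Of 19 cytoskeletal genes none rose and 1 fell. Of 13 scaffold and vesicle release genes 2 rose and 1 fell, of 11 secreted and matrix proteins 2 rose, of 12 regulators of GTPases 1 rose (Rgs6, which acts on heterotrimeric G proteins), of 6 receptor tyrosine phosphatases 1 rose, of 5 cadherins and catenins 1 rose, and none of 6 RNA-binding proteins was called. Of 43 members in no list 5 rose.

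**Figure D1:**
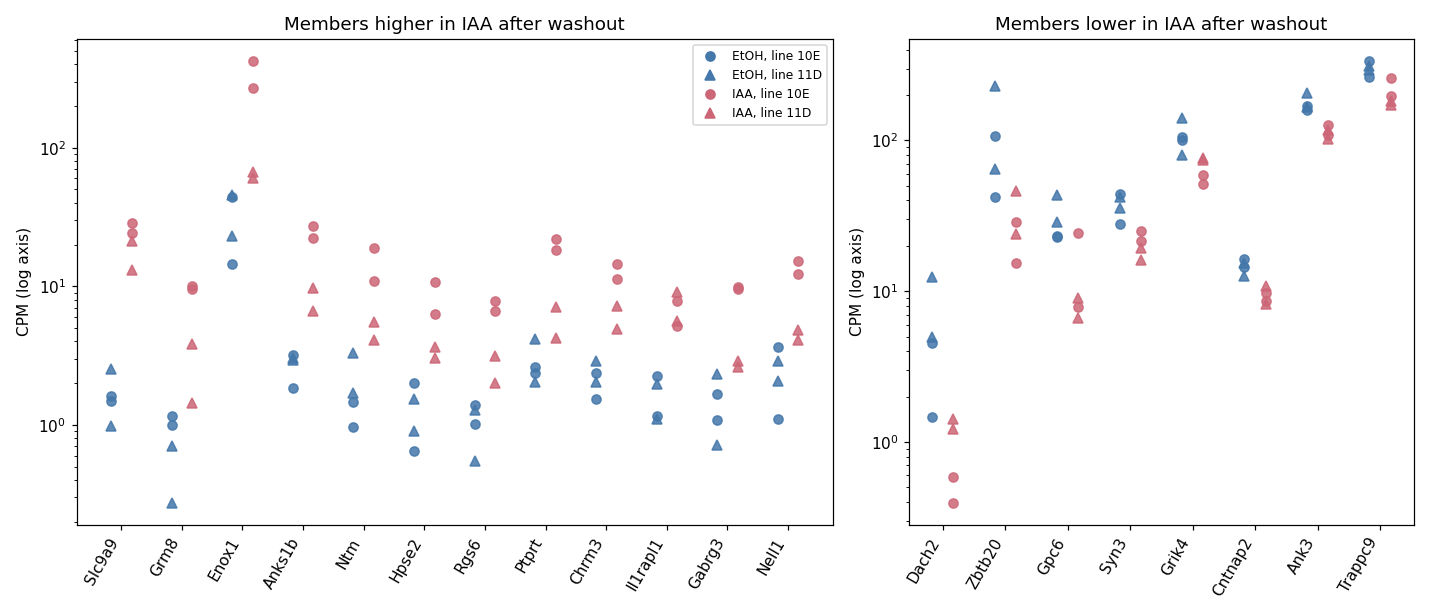
Level (CPM, log axis) of the 12 largest rises and the 8 falls after washout in each of 8 libraries, with colour for treatment and shape for line. For Slc9a9 every IAA point lies above every EtOH point, while Enox1 is highest in the 10E IAA libraries at 268 and 423 CPM.

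The falls were smaller, apart from a pair of transcription factors. Dach2 measured 1.47 and 4.53 CPM in 10E EtOH, 4.94 and 12.4 in 11D EtOH, 0.588 and 0.395 in 10E IAA, and 1.41 and 1.22 in 11D IAA (log2 -2.62 ± 0.62 SE, adjusted p = 0.0148). The groups did not overlap, although the EtOH libraries spread widely. Zbtb20, a zinc finger repressor, measured 42.4 and 107 CPM in 10E EtOH, 64.4 and 229 in 11D EtOH, 15.3 and 28.6 in 10E IAA, and 46.2 and 24.0 in 11D IAA (log2 -1.95 ± 0.49 SE, adjusted p = 0.0209). Here the groups overlapped, and the call was lost without any of 3 IAA libraries (adjusted p up to 0.107).

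Gpc6, a glypican of the cell surface, measured 22.9 and 23.1 CPM in 10E EtOH, 28.6 and 43.4 in 11D EtOH, 7.85 and 24.4 in 10E IAA, and 8.98 and 6.67 in 11D IAA (log2 -1.30 ± 0.38 SE, adjusted p = 0.0387). Replicate 2 of 10E IAA lay within the EtOH range; without it the log2 change was -1.91 (adjusted p = 0.00109), and the call was lost without any of 6 other libraries (adjusted p up to 0.103). Syn3, a synapsin of synaptic vesicles, fell by 0.88, Grik4, a kainate receptor subunit, by 0.70, Cntnap2, an adhesion protein of axons, by 0.64, Ank3, the membrane scaffold ankyrin-G, by 0.62, and Trappc9, a subunit of the TRAPP trafficking complex, by 0.57 on the log2 scale. Of these 5, only Syn3 kept its call when any 1 library was left out.

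The lines differed in the members' median, by an amount that was smaller when 1 library of each line was left out. The median log2 change of the members was 0.47 in 10E, with 171 positive, and -0.41 in 11D, with 67 positive, while over all genes it was -0.07 and -0.03. In the highest level group, replicate 2 of 10E IAA and replicate 2 of 11D EtOH stood above the rest. Its median level was 370 and 415 CPM per Mb in 10E EtOH and 385 and 657 in 10E IAA. In 11D it was 429 and 626 in EtOH and 364 and 296 in IAA. The same 2 libraries stood highest in the third group, at 71.8 and 75.5. In the second group both 10E IAA libraries, at 14.3 and 16.0, lay above replicate 2 of 11D EtOH at 12.2. In the lowest group 10E IAA was at 4.23 and 4.52. Replicate 1 of 11D IAA was at 3.88 there, and replicate 2 of 11D EtOH at 3.47. Replicate 2 of 10E IAA and replicate 2 of 11D EtOH were then left out, an alternative chosen after seeing the data. The medians became 0.18 with 135 positive in 10E and -0.06 with 110 positive in 11D. There, 29 members were higher and 3 lower in 10E, and 3 were higher and 4 lower in 11D. These 2 libraries had the highest member share in their treatment, so the direction of this shift was largely fixed by the choice. In the fit with a separate effect per line, 53 members were higher and 4 lower in 10E, where 8.84% and 9.46% of all genes were, and 2 were higher and 4 lower in 11D, where 1.59% and 1.02% of all genes were. Of the 32 rises, 29 were larger in 10E, with medians of 1.96 in 10E and 0.86 in 11D. The test of the difference between lines called 0 members and 0 of all genes in edgeR (smallest adjusted p among members 0.261), where 78 members and 2250 of all genes had an unadjusted p under 0.05, or 34 members without those 2 libraries. DESeq2 called 21 members and 136 of all genes, and edgeR without the filter on low counts called 35 members. For that last fit, and for the fit without those 2 libraries, numbers over all genes are not given here. Those member counts therefore cannot be set against all genes.

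**Figure D2:**
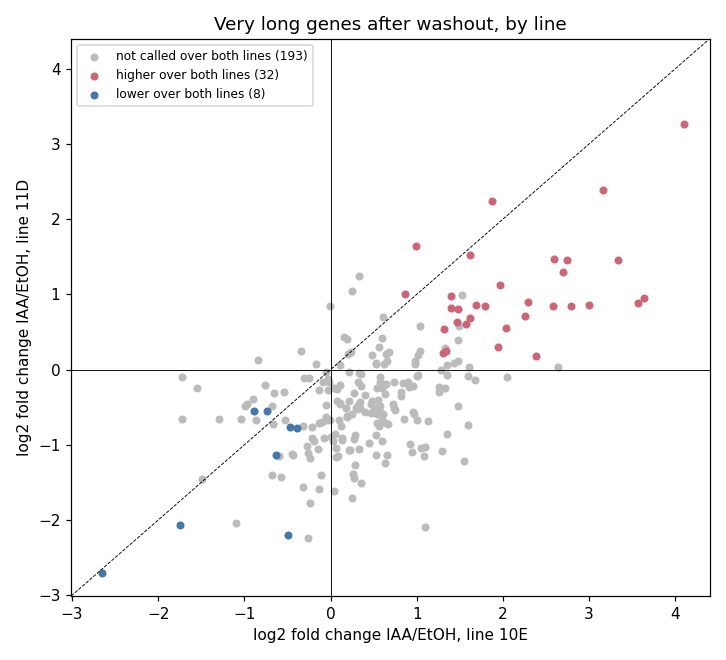
Log2 fold change (IAA over EtOH) of each of 233 members in line 10E (x axis) and line 11D (y axis), with the dashed line where they are equal. Most points lie below the dashed line, and the medians are 0.47 in 10E and -0.41 in 11D, or 0.18 and -0.06 without replicate 2 of 10E IAA and replicate 2 of 11D EtOH.

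The lowest level group held 17 of the 32 rises, the next held 8, the third 6 and the highest 1. Median log2 changes in the same order were 0.43, 0.29, -0.09 and -0.11. The count limit touches the lowest group most, so this order is a description. In 5 sets of weakly transcribed genes looked at after these results were known, summed levels per megabase did not move alike. Olfactory receptor genes had 3.30 to 8.04 CPM per Mb in EtOH and 3.30 to 4.23 in IAA, and vomeronasal receptor genes 2.82 to 4.37 and 2.66 to 3.50. Keratin-associated protein genes had 0.847 to 3.58 and 0 to 4.67, on at most 3 pairs per library. Beta-defensin genes had 0.363 to 7.31 and 8.67 to 12.3, without overlap, on at most 33 pairs per library. The 108 very long genes under the count limit had 1.07 to 1.48 CPM per Mb in EtOH and 1.71 to 2.36 in IAA, without overlap, and the lowest level group of members 2.60 to 4.34 and 3.05 to 5.48.

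By length, genes of 400 kb or more, members or not, were called higher in 16.6% and lower in 2.56% of 313 tested. Of these 52 and 8 genes, 32 and 8 were members, and the others were left out by the member rule. A weak gene can pass the filter on low counts through its IAA libraries alone, so the shares by length are a description. Genes of 200 to 400 kb were called higher in 9.27% and lower in 6.95%, genes of 100 to 200 kb in 10.6% and 5.65%, genes of 50 to 100 kb in 12.2% and 5.35%, and genes under 10 kb in 5.57% and 8.99%. The share called higher did not follow length steadily. Median log2 changes in the same order were 0.17, 0.00, 0.07, 0.11 and -0.26. Weakly transcribed shorter genes were also called higher. Within the level range of the members' second group these were 17 of 108 genes of 200 to 400 kb and 31 of 172 genes of 100 to 200 kb. Of the members there, 8 of 58 were called higher. In the range of the lowest group these were 6 of 44 genes of 200 to 400 kb, against 17 of 59 members. The count limit touches that group most. In the third range they were 21 of 145, against 6 of 58 members, and in the highest 8 of 264, against 1 of 58.

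In the time course the authors deposited a table of log2 changes and adjusted p-values per time, with no values per library. The groups compared and the direction are not given in the sources used here, so values are stated as signed, and they are shrunken towards 0. The tables list 228 members. At 0 h none was positive and 5 were negative, where 0.0201% and 0.356% of all genes were. These were Tshz2, a zinc finger factor, at -1.97, Cacna1d, a calcium channel, at -1.34, Ncald, a calcium sensor, at -0.99, Atxn1, ataxin-1, at -0.96, and Adgrv1, an adhesion G protein-coupled receptor, at -0.94. None of the 5 was called at a later time. Ncald shares 74.1% of its length with other genes on its strand.

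At 3 h the authors' deposited table called 0 members, where 0.532% of all genes were positive and 0.0458% negative (0.578% in all). An unadjusted p under 0.05 was given for 16 members, and the number over all genes is not given here. A positive sign was seen in 30.7% of members, against 47.7% of all genes. It was seen in 12.7% of genes of 100 to 200 kb and 17.2% of genes of 200 to 400 kb. At 3 h 158 of 228 members had a negative sign, and at 0 h 158 of 228 also did. At 6 h 2 were positive and 9 negative, where 1.71% and 1.39% of all genes were (3.1% in all). The positive members were Pde4b, a cyclic AMP phosphodiesterase, at 1.12 (adjusted p = 0.00105) and Cadps, a vesicle priming protein, at 0.76 (adjusted p = 0.0274). The lowest of the 9 were Enox1 at -1.26, Cpq, a peptidase, at -0.79, Fbxl17, an F-box protein, at -0.66, Macrod2, an ADP-ribose hydrolase, at -0.60, Klf12, a transcription repressor, at -0.58, and Exoc4, an exocyst subunit, at -0.54. At 6 h 19.3% of members had a positive sign, against 48.8% of all genes and 22.6% of genes of 100 to 200 kb, with a median of -0.10 against 0.00 over all genes.

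At 12 h the authors' deposited table had 27 members positive and 55 negative, 11.8% and 24.1% of those listed, where 8.57% and 12.1% of all genes were. Among the highest were Zfpm2, a GATA cofactor, at 2.48 ± 0.33 SE (adjusted p = 1.93e-12), Pde4b at 2.39, Gabrg3 at 2.32, Cadm2, a synaptic adhesion protein, at 2.12, and Cadps at 2.00. The lowest were Slc39a11 at -1.79 ± 0.49 SE (adjusted p = 0.000319), Ntrk3, a neurotrophin receptor, at -1.73, Zbtb20 at -1.70, Cep112, a centrosomal protein, at -1.67, Wwox, an oxidoreductase at a common fragile site, at -1.60, and Arhgap26, a GTPase-activating protein that shares 27.3% of its length with other genes on its strand, at -1.59. Of the 55 negative members 55 had a negative sign at 6 h, with a median of -0.31 there and -1.03 at 12 h.

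The sign at 12 h followed the level measured in the washout libraries, which are separate from the time course. Positive members had a median level of 8.81 CPM per Mb and negative members 369. In the highest level group, 33 were negative and 1 positive, with a median of -0.78. In the third group 16 were negative and 3 positive, in the second 3 and 13, and in the lowest 3 and 10. Across 228 members the Spearman rank correlation between level and the 12 h value was -0.58, and between length and the 12 h value 0.10; members share the same libraries and these are descriptions. The same was seen at shorter lengths: among genes of 200 to 400 kb within the level range of the highest group, 42.7% of 260 were negative and 0.769% positive, against 2.44% and 22.0% of 41 in the range of the lowest.

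**Figure D3:**
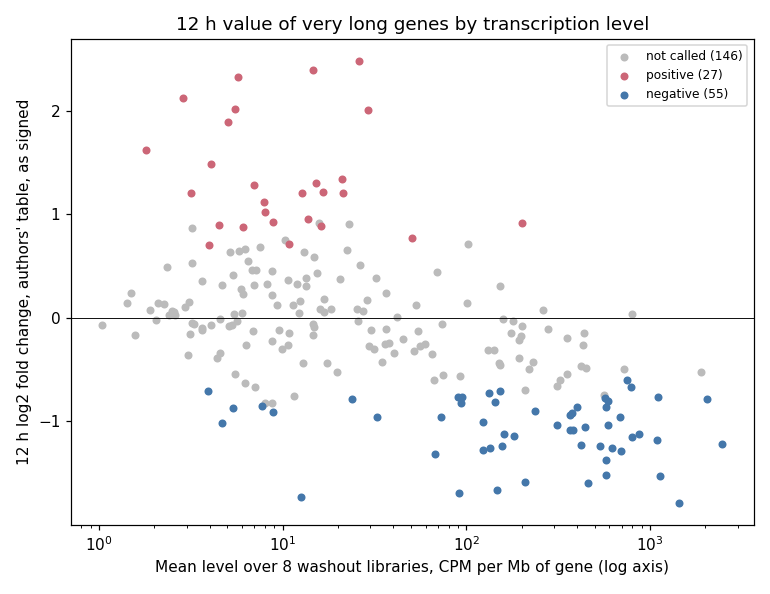
The 12 h log2 fold change in the authors' table, as signed (y axis), of 228 members against their mean level in the 8 washout libraries (CPM per Mb, log x axis). The 55 negative calls lie mostly at high levels (median 369) and the 27 positive calls mostly at low levels (median 8.81).

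By role, 16 of the 38 genes in the housekeeping and fragile site list were negative at 12 h and none positive, with a median of -0.60. Wwox, Cdkal1, a tRNA-modifying enzyme, at -1.51, and Exoc4 at -1.38 were the lowest. Of 19 cytoskeletal genes 10 were negative and 3 positive, with a median of -0.61, among them the formin Diaph3 at -1.28 and Lpp, a focal adhesion protein, at -1.26. Of 12 regulators of GTPases 5 were negative and 1 positive, and of 24 transcription factors 6 and 2. Of 20 channels and receptors 2 were negative and 4 positive, and of 17 neuronal adhesion genes 3 and 4. Of the 19 genes in the list with kinases and phosphodiesterases 3 were negative and 5 positive. Of 13 scaffold genes these were 1 and 2, and of 11 secreted proteins none and 2. Of 5 cadherins and catenins 1 was negative, of 6 RNA-binding proteins 1 was negative and 1 positive, none of the receptor tyrosine phosphatases was called, and of the members in no list 7 were negative and 3 positive.

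The washout and 12 h calls come from separate libraries. Of the 32 members higher after washout, 10 were positive at 12 h, 0 were negative and 1 was not listed, and of the 27 positive at 12 h these were 10. Among them, Slc9a9 was at 1.34 and Grm8 at 1.48 at 12 h. Of the 8 lower after washout, 3 were negative at 12 h (Zbtb20, Cntnap2 and Trappc9) and 0 positive, out of 55 negative at 12 h. The other 52 negative at 12 h were not called after washout, where the median of all 55 was -0.14.

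By length at 12 h, 60 of 353 genes of 400 kb or more were negative and 46 positive. The shares were 22.4% and 8.48% at 200 to 400 kb, 19.7% and 5.48% at 50 to 100 kb and 2.43% and 11.6% under 10 kb.

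**Figure D4:**
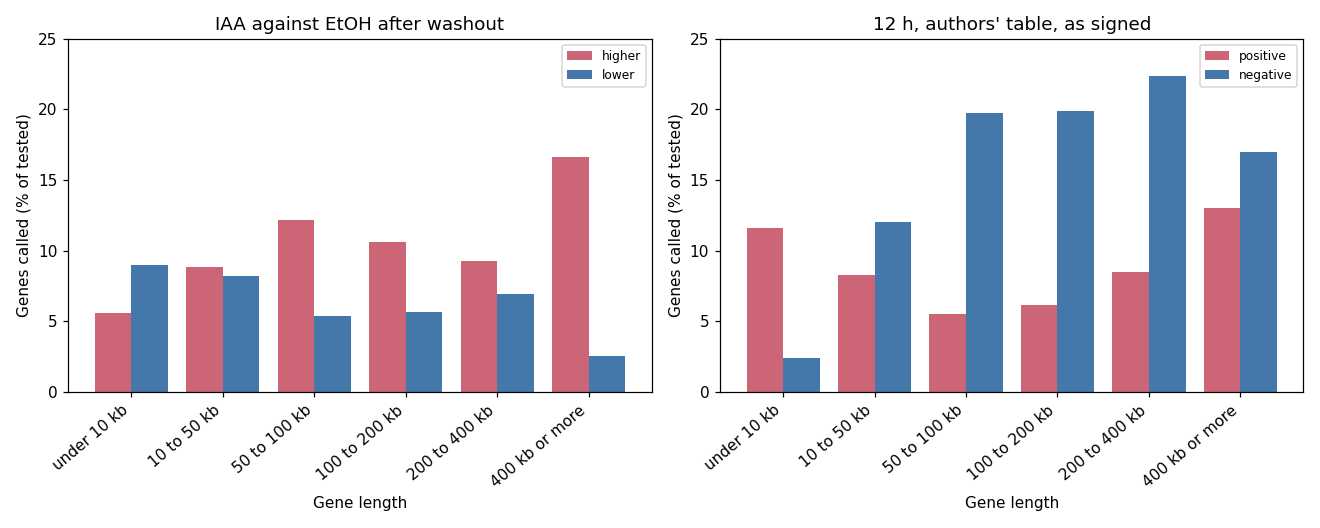
Share of tested genes called (%) by gene length, after washout (left, higher and lower in IAA) and at 12 h in the authors' table (right, as signed). After washout the class of 400 kb or more has 16.6% higher and 2.56% lower, and at 12 h it has 46 positive and 60 negative of 353 genes. This class holds members and other genes.

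Transcripts upstream of members' promoters (PROMPTs) were listed for 219 members in the authors' deposited tables. An adjusted p was given for 68, 68, 14 and 12 of them at 0, 3, 6 and 12 h, and 0 were called at any time. An unadjusted p under 0.05 was given for 0, 1, 1 and 3, and the numbers over all PROMPTs are not given here. Among all PROMPTs, 0.00821%, 0%, 0.122% and 5.05% were called, at 12 h 3.11% positive and 1.93% negative.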

How the data were processed

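Members and lists were chosen with earlier results of these data known. For the washout, the authors deposited raw counts per gene from featureCounts 2.0.1, per the file headers; introns were counted by strand, and pairs that overlap several genes were not assigned. STAR, deepTools and mm10 are named in the submitters' processing notes. The time tables hold log2 fold changes, mean signal per gene, p-values and adjusted p-values as the authors deposited them; where a name had several gene IDs, the one with the highest mean at 0 h was used, a choice made after seeing them that drops 1 negative call at 6 h and 1 positive at 12 h.

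Washout counts were tested with edgeR 4.0.16 (R 4.3.3; TMM, filterByExpr, robust quasi-likelihood, no block) and, as an alternative, DESeq2 1.42.0. Each treatment was given to both lines, which pairs samples by line in the design. The mean deviations of a line correlated at -0.16 between treatments. Replicate numbers do not pair samples (correlations of deviations -0.50 to 0.34). On simulated counts for 14799 genes, 92.4% of changes of 1.5 and 28.7% of 0.75 (log2) were recovered for this comparison, with 8 false calls. Changes were planted only in genes above a floor of mean level, and no difference between lines was simulated. The recovery may therefore not hold for weakly transcribed members. Libraries within a line may be technical replicates. Without a block, p-values measure the spread over the 4 libraries of a treatment, within and between the 2 lines, and not a spread over more lines. Named genes are the 12 largest rises and falls with the same sign in both lines, the 5 highest levels, the 6 highest and lowest called at each time, those nearest the limits, and the largest changes of each list; 1 gene this rule names is not reported here. Tables of DNase sites and enhancer RNA were not used here.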

Additional observations from a re-analysis of the deposited data

Results flagged for a closer look

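Over the 20 members named after washout and the members' share of counts, 42 groups of 4 libraries were looked at for a library far from the other 3, and 1 was found, where chance gives about 1 in 20. Gpc6 measured 24.4 CPM in replicate 2 of 10E IAA, against 6.67 to 8.98 CPM in the other 3 IAA libraries.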

How the results depend on the processing

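Of the 20 named washout changes, none changed sign under any alternative. They were chosen for the same sign in both lines, so this was largely fixed by the choice. Of the 20 calls, 15 were lost in line 11D alone, 5 in line 10E alone and 9 without replicate 1 of 10E IAA. Against 32 members higher and 8 lower, DESeq2 gave 38 and 12, DESeq2 size factors 33 and 7, and upper-quartile scaling 27 and 12. Without the filter on low counts there were 39 and 22. With line as a replicate block there were 28 and 11, and all 20 named calls held. With line and replicate number as the block there were 21 and 5. Line 10E alone gave 60 and 6, and line 11D alone 2 and 8. Leaving out 1 library at a time gave 16 to 38 higher and 2 to 11 lower. Leaving out together replicate 2 of 11D EtOH and replicate 2 of 10E IAA, the library with the highest member share in each treatment, an alternative chosen after seeing the data, gave 21 and 8, and 7 of the 20 named calls were lost. The line difference was called for 0 members with TMM or DESeq2 size factors, 35 without the filter and 21 by DESeq2. In the authors' tables an adjusted p under 0.1 gave 1 positive and 1 negative member at 3 h in place of 0 and 0, and 19 negative at 6 h in place of 9; at 12 h it gave 35 positive and 63 negative, and a mean count of at least 50 gave 23 and 55. The causes were not tested. Shares over all genes are not given here for these alternatives, so the counts show only how the members' calls moved. Low counts limit the rises: 24 of the 32 had a mean under 5 CPM in EtOH.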
